A study of Mus musculus with 6 samples.

Results

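Nuclear genes for the subunits of respiratory complexes II, III, IV and V were taken from the deposited count table by symbol. Complex II comprised Sdha, Sdhb, Sdhc and Sdhd, complex III Cyc1 and every symbol beginning with Uqcr, complex IV every symbol in which Cox and a digit from 4 to 8 are followed by a letter, and complex V every symbol beginning with Atp5. After 10 rows with the pseudogene ending -ps were left out, 48 of the 26971 features of the table remained, 4 in complex II, 9 in complex III, 17 in complex IV and 18 in complex V. A count of at least 10 in at least 3 libraries was reached by 46 of them, all except Cox4i2 and Cox8b of complex IV.

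Kidney cortex of male C57BL/6 mice was taken 1 day after the operation. IRI commonly stands for ischaemia-reperfusion injury, in which the blood supply of the kidney is interrupted and then restored. The comparison set 3 libraries from kidneys with IRI and renal congestion, titled Cong_IRI and headed IVCC_IRI in the count table, against 3 libraries from kidneys with IRI, titled and headed CLK_IRI. Both groups carry IRI, so no value below compares an injured with an uninjured kidney. The labels expand neither CLK nor IVCC, and the age of the mice was not given in the sources used here. Nothing in them states that the samples of a group are different mice. The p-values therefore cover the spread among these 6 samples and nothing beyond it.

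Complexes II, III and IV of the inner mitochondrial membrane pass electrons from succinate and from reduced ubiquinone to oxygen, and complexes III and IV pump protons as they do so. Complex V, the ATP synthase, lets the protons flow back through its membrane sector Fo and makes ATP in its catalytic head F1. Kidney cortex is rich in mitochondria, most of all in the proximal tubule, whose sodium-driven reabsorption consumes much of the ATP. The catalytic core subunits encoded by mitochondrial DNA were not analysed here. Most nuclear subunits are small proteins with short messenger RNAs.

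Total counts per library ranged from 10865860 to 14350425, and 1.53% to 2.65% of the counts of a library lay in the 48 genes. Libraries of equal replicate number deviated together from their group means, with a correlation across genes of 0.719 for number 1, 0.342 for number 2 and 0.427 for number 3. However, IRI replicate 2 with congested replicate 3 reached 0.395, and IRI replicate 3 with congested replicate 2 reached 0.242. Only number 1 was thus set apart by these values. IRI replicates 1 and 2 stood apart from the other libraries in how the level of a gene depended on the length of its transcript. For each doubling of length the log2 level changed by -0.29 and -0.18 in these libraries, relative to the mean over the 6 libraries, against 0.17 in IRI replicate 3 and 0.04, 0.16 and 0.10 in congested replicates 1, 2 and 3. Since the subunit genes are short, medians over groups of genes are given as measured and again after a smooth trend of each library in transcript length and GC content had been removed, and the plot of fold changes shows both for each gene.

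Subunit genes of all 4 complexes lay lower in congested IRI than in IRI kidney, except Uqcrc2 and Cyc1 of complex III, but none passed the test. Of the 46 tested genes, 44 had a log2 fold change (congested against IRI) below 0, compared with 50.3% of all 14398 tested genes. Their median was -0.61, with -0.36 in complex II, -0.45 in complex III, -0.67 in complex IV and -0.57 in complex V, beside -0.004 over all tested genes. With the length and GC trend removed, the median of the 46 genes was -0.26, with 38 below 0, beside -0.03 and 55.5% over all tested genes. The complex medians then lay close together, at -0.27, -0.24, -0.26 and -0.22 in the order II to V.

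The quasi-likelihood test of edgeR called 0 of the 46 genes at an adjusted p under 0.05, and 0% of all tested genes, with adjusted p from 0.935 to 0.986 among the 46. An unadjusted p under 0.05 was reached by 7 of the 46, all lower in congested kidney, namely Cox5a, Atp5pd, Atp5me, Atp5po, Cox5b, Atp5f1e and Uqcr11, compared with 1.02% of all tested genes in that direction, and 0 were higher, compared with 0.979%. That count of 7 was 31 without IRI replicate 3, when 19.0% of all 14219 tested genes reached the threshold in either direction, and 0 to 3 without any one of the other 5 libraries. When the replicate number entered edgeR as a block, 0 were called again, with 14 of the 46 below the unadjusted threshold and lower, compared with 2.99% of all tested genes. With the length and GC trend removed that count was 1 of 46 without the block, compared with 0.993% of all tested genes, and 8 of 46 with it, compared with 5.08%. DESeq2 and limma-voom also called 0 of the 46, with 14 and 4 below the unadjusted threshold without the block, compared with 2.47% and 2.01% of all tested genes in either direction. With the block these counts were 26 and 15, compared with 6.81% and 7.36%.

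**Figure D1:**
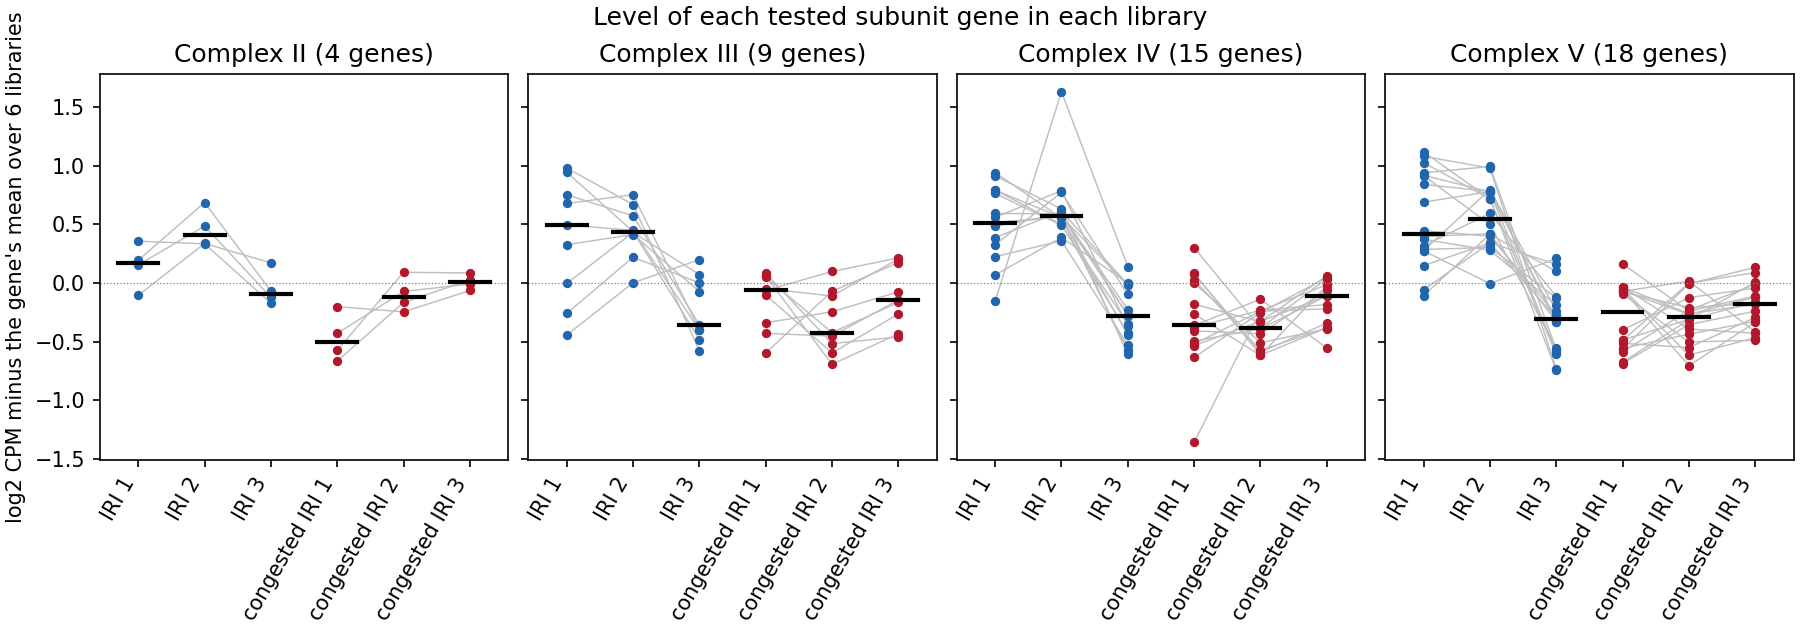
Level of each of the 46 tested subunit genes in each library, as log2 CPM (TMM-scaled, no prior count) minus the mean of that gene over the 6 libraries, by complex. Points are genes, grey lines join a gene across the libraries of a group and black bars are medians; IRI replicates 1 and 2 are high, while IRI replicate 3 lies at the height of the congested libraries.

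IRI replicates 1 and 2 were the high libraries. In 36 of the 46 genes both of these libraries lay above all 3 congested libraries, whereas IRI replicate 3 lay within the congested range in 29 genes and was the lowest IRI library in 38. All 3 congested libraries lay below all 3 IRI libraries in 4 genes, Uqcrfs1, Cox5a, Cox5b and Cox6a2, compared with 3.10% of all tested genes, and above them in 0, compared with 3.38%. With the trend removed, 3 genes had congested libraries below all IRI libraries (Cox7a2l, Atp5pd and Atp5po), compared with 4.17% of all tested genes, and 1 gene, Cox6c2, had them above, compared with 2.92%. Without IRI replicate 1, 2 or 3 the median of the 46 genes was -0.41, -0.43 or -0.82. In bulk tissue, fewer cells rich in mitochondria and less of these RNAs per cell cannot be told apart.

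The promoter of the gene with the smallest p in each complex is shown to set the sequence beside the values that follow. RefSeq promoters, from 250 bases before to 50 after the transcription start, were given for 34 of the 46 genes in GRCm38.p6. Each print runs 5′ to 3′ on the strand of the gene, covers the upstream bases that overlap no annotated exon, and has matches to a searched motif in capitals. They are Sdhb at chr4:140961021-140961202 on the plus strand, Uqcr11 at chr10:80406831-80407071 on the minus strand, Cox5a at chr9:57520982-57521231 on the plus strand and Atp5pd at chr11:115419963-115420127 on the minus strand.
Sdhb: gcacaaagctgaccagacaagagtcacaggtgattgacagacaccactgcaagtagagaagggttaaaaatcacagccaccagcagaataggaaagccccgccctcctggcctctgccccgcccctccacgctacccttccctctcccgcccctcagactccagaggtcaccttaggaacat
Uqcr11: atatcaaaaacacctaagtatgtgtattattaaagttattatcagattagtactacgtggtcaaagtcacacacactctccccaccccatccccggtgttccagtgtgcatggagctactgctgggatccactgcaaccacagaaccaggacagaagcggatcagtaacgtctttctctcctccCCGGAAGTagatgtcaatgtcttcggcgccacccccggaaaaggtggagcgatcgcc
Cox5a: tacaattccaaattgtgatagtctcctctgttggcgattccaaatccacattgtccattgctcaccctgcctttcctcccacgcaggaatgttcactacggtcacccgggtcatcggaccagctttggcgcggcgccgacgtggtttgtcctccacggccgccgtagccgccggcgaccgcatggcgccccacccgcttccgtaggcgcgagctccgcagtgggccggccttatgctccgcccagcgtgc
Atp5pd: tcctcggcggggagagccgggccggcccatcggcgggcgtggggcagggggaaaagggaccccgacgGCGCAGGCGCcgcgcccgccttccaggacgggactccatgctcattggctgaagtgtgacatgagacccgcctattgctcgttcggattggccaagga

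Both strands of each 300-base promoter were searched for 4 motifs of factors known to act on respiratory genes. These were NRF1 (GCGCA and GCGC with 1 base of any kind between them), GABPA (CCGGAAGT), YY1 (AAGATGGCG) and the oestrogen-related receptors (TCAAGGTCA), none of which contains another. Uqcr11 held a GABPA match 66 bases upstream of its start and Atp5pd an NRF1 match 141 bases upstream, with a GABPA match 39 bases upstream that lies outside the print. Neither Sdhb nor Cox5a held a match in its 300 bases. The NRF1 letters were found in 11 of the 34 genes (32.4%) and in 4.60% of all 32851 promoters in the table. A gene was counted if any of its promoters matched, and Atp5f1c, Atp5f1d and Atp5pf had 2 each. The share of all is per promoter, so the units differ slightly. By complex the NRF1 letters stood in 2 of 3 genes of complex II, 1 of 5 of complex III, 1 of 11 of complex IV and 7 of 15 of complex V. GABPA letters were found in 4 of 34 genes and 3.89% of all promoters, YY1 in 2 of 34 and 1.40%, and the oestrogen-related receptor letters in 2 of 34 and 0.423%. A match describes letters and shows no binding.

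Complex II, succinate dehydrogenase, also belongs to the citric acid cycle, and its 4 nuclear genes make the whole enzyme. Levels are given in CPM, the counts of a gene scaled to a common library size with TMM factors, and are listed for replicates 1, 2 and 3. Sdhb, the iron-sulfur subunit (chr4:140961203-140979193), was at 401, 564 and 334 CPM in IRI and 221, 313 and 357 CPM in congested IRI kidney. Means were 433 ± 118 and 297 ± 69.2 CPM (SD, n = 3), with a fitted log2 fold change of -0.54 ± 0.30 (standard error). Congested replicate 3 lay above IRI replicate 3, so the groups overlapped. Sdhd, a membrane anchor, was at 573, 564 and 397 CPM in IRI and 389, 378 and 428 CPM in congested kidney, with -0.36 ± 0.24. Sdhc, the other anchor, was at 333, 419 and 275 against 222, 285 and 298 CPM, with -0.35 ± 0.25. Sdha, the flavoprotein that oxidises succinate, was at 728, 988 and 882 against 526, 834 and 830.2 CPM, with -0.25 ± 0.28. In all 4 genes congested replicate 3 reached into the IRI range, and congested replicate 1 was the lowest library in Sdha, Sdhb and Sdhc.

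Complex III passes electrons from ubiquinol to cytochrome c, and 4 of its 5 small accessory subunits lay lowest. Uqcr11, a small subunit (chr10:80402997-80406830), was at 289, 305 and 137 CPM in IRI and 134, 132 and 164 CPM in congested kidney. Means were 244 ± 92.6 and 143 ± 17.5 CPM (SD, n = 3), with a fitted log2 fold change of -0.77 ± 0.33 (standard error). IRI replicates 1 and 2 were high, and IRI replicate 3 lay among the congested libraries. The same order held in Uqcrh, the acidic hinge subunit that contacts cytochrome c1, at 1074, 865 and 365 CPM in IRI and 567, 337 and 403 CPM in congested kidney, with -0.82 ± 0.42. Uqcrq, another small subunit, was at 500.1, 442 and 232 against 277, 196 and 247 CPM, with -0.70 ± 0.33. Uqcrb and Uqcr10, also small subunits, stood at -0.68 and -0.40.

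As measured, the subunits of complex III that carry redox centres or form the core lay nearer 0 than those 4 small subunits. Their transcripts have 1363 to 1896 bases, against 445, 547 and 535 in Uqcr11, Uqcrh and Uqcrb. Uqcrq, fitted with 1521 bases, lay within the range of the longer ones. Uqcr10 was the shortest, with 434 bases, yet stood at only -0.40, and at 0.05 with the trend removed. Length thus did not separate the small subunits in full. With the length and GC trend removed, Uqcr11, Uqcrh, Uqcrq and Uqcrb stood at -0.27, -0.34, -0.48 and -0.31. Uqcrfs1, Uqcrc1, Uqcrc2 and Cyc1 then stood at -0.24, -0.15, 0.19 and 0.20. Uqcrfs1, the Rieske iron-sulfur protein, was at 603, 641 and 457.4 CPM in IRI and 380.4, 406 and 456.6 CPM in congested kidney, with a log2 fold change of -0.45 ± 0.24. Its groups did not overlap, but IRI replicate 3 and congested replicate 3 were nearly level. Uqcrc1, a core subunit, had -0.31 ± 0.28. The 2 genes above 0 among the 46 were both in this complex. Uqcrc2, the other core subunit, was at 314, 428 and 490.5 CPM in IRI and 409, 457 and 495 CPM in congested kidney, with 0.14 ± 0.25, and Cyc1, which carries the haem of cytochrome c1, had 0.02 ± 0.24. IRI replicate 1 was the lowest library in both.

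Complex IV, cytochrome c oxidase, reduces oxygen, and all 15 tested nuclear genes of it lay below 0. Cox5a, a matrix-facing subunit (chr9:57521274-57532426), had the smallest p of the 46 genes. It was at 167, 195 and 127 CPM in IRI and 89.1, 108 and 110 CPM in congested kidney. All congested libraries lay below all IRI libraries, with means of 163 ± 34.3 and 102 ± 11.4 CPM (SD, n = 3), with a fitted log2 fold change of -0.67 ± 0.23 and an edgeR adjusted p of 0.935. Cox5b, which binds zinc on the matrix side, was at 304, 413 and 226.2 CPM in IRI and 172, 185 and 224.3 CPM in congested kidney, with -0.70 ± 0.28. Here too the groups did not overlap, with the replicates numbered 3 nearly level. Cox6b1, which faces the intermembrane space, was at 600.4, 702 and 315 against 281, 325 and 377 CPM, with -0.72 ± 0.33. Cox7a2l was at 144, 152 and 84.9 against 79.0, 87.1 and 90.2 CPM, with -0.57 ± 0.26. In both genes IRI replicate 3 lay within the congested range.

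Among the other broadly expressed subunits of complex IV, Cox4i1, a regulatory subunit that binds adenine nucleotides, was at 999, 1072 and 610.0 CPM in IRI and 460.1, 599 and 737 CPM in congested kidney, with -0.58 ± 0.31. Cox6a1 was at 781, 779.6 and 427 against 390.4, 384 and 497 CPM, with -0.64 ± 0.30. Both showed IRI replicates 1 and 2 above every other library. Cox7a2 was at 790.2, 649 and 275 against 427, 282 and 322 CPM, with -0.73 ± 0.40, and Cox7b at 786, 642 and 337 against 479, 302 and 358 CPM, with -0.63 ± 0.36. Cox6c and Cox7c had log2 fold changes of -0.71 and -0.68. Cox8a, at 441, 550.5 and 421 CPM in IRI and 371, 335 and 439 CPM in congested kidney, had -0.30 ± 0.23 and turned to 0.07 once the length and GC trend was removed. Its groups overlapped through congested replicate 3.

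Isoforms of complex IV subunits that are typical of muscle, testis or lung were scarce. Cox7a1, the heart and skeletal muscle form, had the lowest log2 fold change of the 46 genes, -1.19 ± 0.56, from 6.20, 21.3 and 7.60 CPM in IRI and 2.69, 5.86 and 6.83 CPM in congested kidney. IRI replicate 2 alone was far above the others, and without it the value was -0.43. Cox6a2, also a muscle form, was at 2.30, 2.39 and 1.59 against 1.26, 1.46 and 1.10 CPM, with -0.71 ± 0.36 and no overlap between groups. Cox6b2, the testis form, was at 13.9, 11.5 and 6.45 against 6.82, 5.35 and 8.08 CPM, with -0.66 ± 0.34. Cox6c2, which the annotation lists as a processed pseudogene and whose reads may belong to Cox6c, was at 3.58, 3.93 and 2.12 against 3.77, 2.34 and 3.14 CPM, with -0.06 ± 0.37. Its groups overlapped as measured, and with the trend removed it stood at 0.38 with no overlap.

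The 2 complex IV genes below the count minimum were not tested. Cox4i2, the lung form, had 7, 8 and 6 counts in IRI and 2, 7 and 11 counts in congested libraries. Cox8b, a form of muscle and brown fat, had 0 counts in every IRI library and in congested replicate 1, 9 counts in congested replicate 2 and 2 in congested replicate 3. A count of 0 allows up to 3 counts, or 0.209 to 0.276 CPM without TMM scaling, depending on the library. Ucp1 and Cidea, which mark brown fat, had 19 and 17 counts in congested replicate 2, and at most 3 counts in any other library. Of the skeletal muscle genes, Ckm had 1 count over the 6 libraries, Acta1 had 6 and Tnnt3 had 2. Whether brown fat in the sample bears on the Cox8b counts was not tested.

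Per length of transcript, the common form made up nearly all of each paired set in complex IV in every library. On the scale of CPM per kilobase, Cox4i1 held 99.88% to 99.96% of the COX4 level, Cox6a1 99.7% to 99.8% of COX6A and Cox6b1 97.5% to 98.3% of COX6B. In the COX7A set, Cox7a2 held 84.4% ± 4.1 in IRI and 84.5% ± 3.9 in congested kidney (SD, n = 3), and Cox7a1 held 0.940% to 4.60% over the libraries. This set was formed by symbol from Cox7a1, Cox7a2 and Cox7a2l, and whether Cox7a2l stands in for the others in the enzyme was not tested. The share of each of these genes differed between groups by less than its spread within IRI. In the COX6C set, Cox6c2 held 1.07% ± 0.27 in IRI and 1.56% ± 0.12 in congested kidney (SD, n = 3), and every congested library lay above every IRI library, with the reservation that its reads may belong to Cox6c. The Cox6c2 counts were only 45, 46 and 24 in IRI and 42, 32 and 40 in congested libraries. Its log2 fold change was -0.06, beside -0.71 in Cox6c, and the difference in share was not tested.

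**Figure D2:**
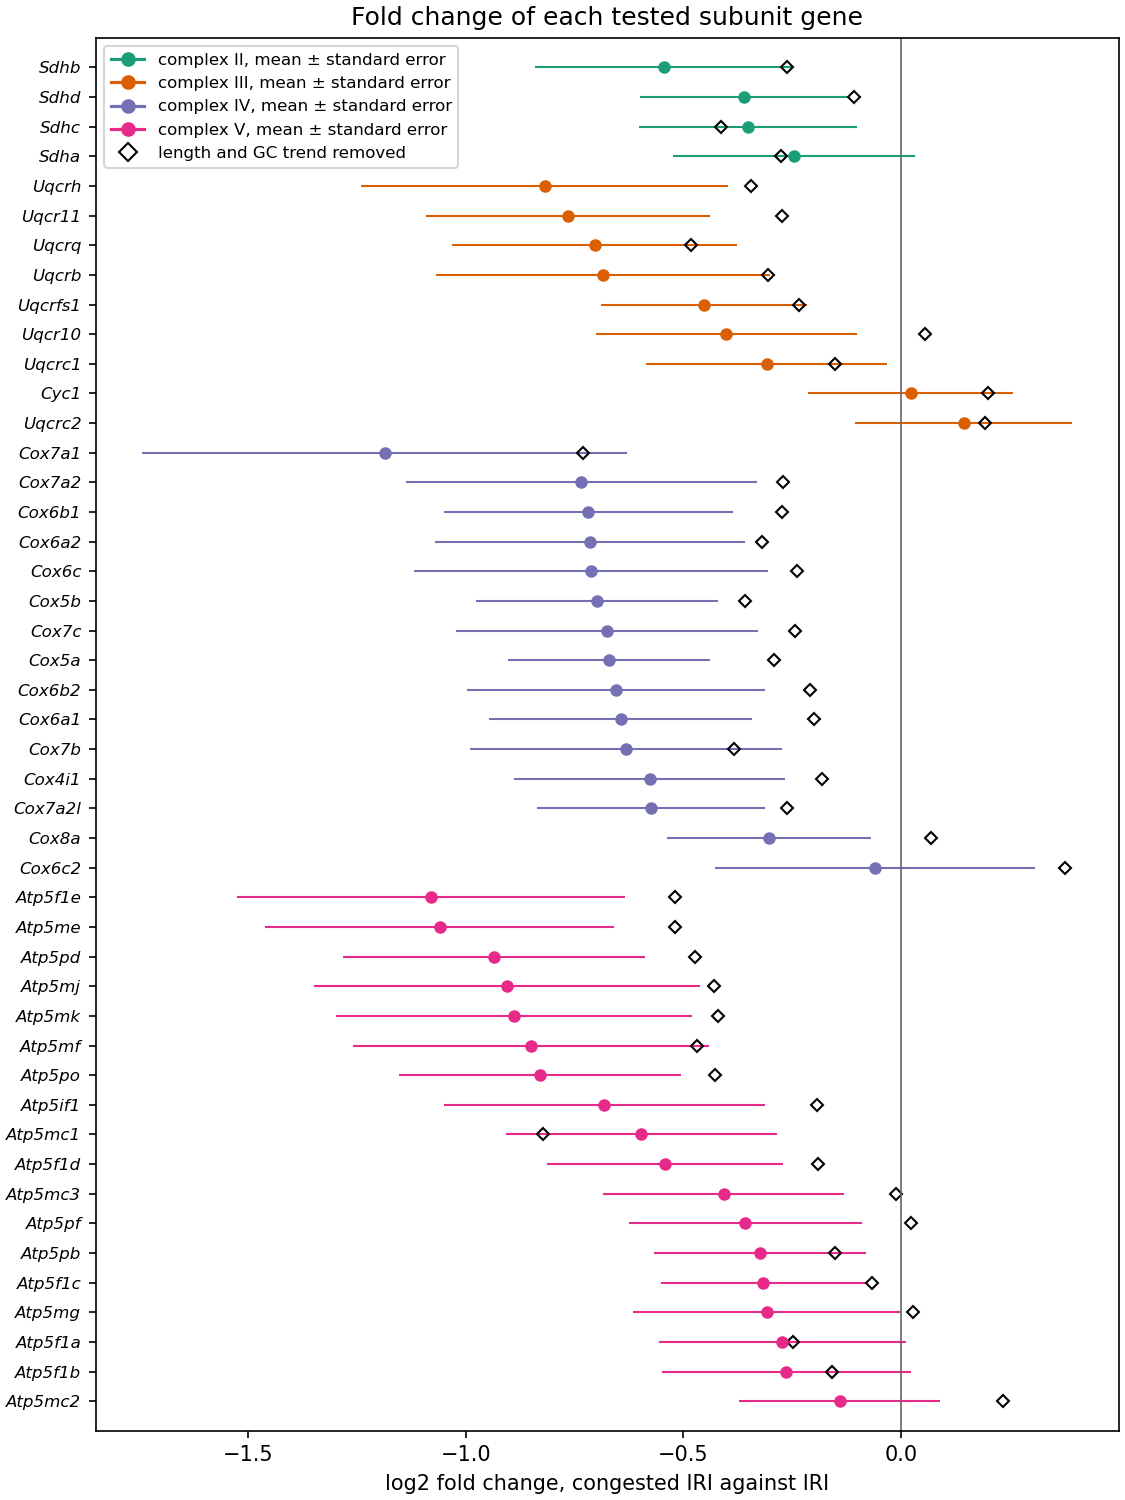
Log2 fold change of each tested subunit gene, congested IRI against IRI, with its standard error (bars) from edgeR, ordered within each complex. Open diamonds give the same value with the length and GC trend removed; filled points reach from -1.19 (Cox7a1) to 0.14 (Uqcrc2), and most diamonds lie nearer 0.

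Complex V gave 18 tested genes, all below 0, and the values were lowest in small subunits of the peripheral stalk, the membrane sector and the head. Atp5pd, subunit d of the peripheral stalk (chr11:115415689-115419962), was at 652, 625 and 289 CPM in IRI and 226, 285 and 308 CPM in congested kidney. Means were 522 ± 202 and 273 ± 42.2 CPM (SD, n = 3), with a fitted log2 fold change of -0.93 ± 0.35. Atp5po, the stalk subunit that seats on F1 and confers oligomycin sensitivity, was at 226, 241 and 113 against 87.8, 113 and 126 CPM, with -0.83 ± 0.32. In both, IRI replicates 1 and 2 stood above the other libraries and congested replicate 1 was the lowest of all. The other stalk subunits, Atp5pb (subunit b) and Atp5pf (coupling factor F6), had -0.32 and -0.36.

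In the catalytic head F1 the genes with shorter transcripts had the lower values, apart from the 2 longest, which were level. The α and β subunits, Atp5f1a and Atp5f1b, which hold the nucleotide sites and have transcripts of 2471 and 1916 bases, stood at -0.27 and -0.26 on the log2 scale. The γ and δ subunits of the central stalk, Atp5f1c (1166 bases) and Atp5f1d (931 bases), had -0.32 and -0.54. Atp5f1e, the ε subunit with 421 bases, was at 471, 439 and 134 CPM in IRI and 151, 165 and 178 CPM in congested kidney, with -1.08 ± 0.45. IRI replicate 3 was the lowest of the 6 libraries for Atp5f1e, and IRI replicates 1 and 2 were far above the rest. With the trend removed, the 5 values were -0.25, -0.16, -0.07, -0.19 and -0.52 in the order α to ε.

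Among the subunits of the membrane sector that help ATP synthase to form dimers, Atp5me (subunit e) was at 318, 329.7 and 112 CPM in IRI and 116, 113 and 135 CPM in congested kidney, with -1.06 ± 0.40. Its IRI replicates 1 and 2 were far above the other libraries, and IRI replicate 3 was the lowest. Atp5mf (subunit f), Atp5mj (a small proteolipid) and Atp5mk (DAPIT) had -0.85, -0.91 and -0.89. Atp5mg, subunit g, was at only 2.12 to 3.42 CPM, with -0.31. This level is uncertain, because near-identical copies of the gene lie elsewhere in the genome and how reads with several positions were counted was not given in the sources used here. Atp5if1, the inhibitor that stops the enzyme from hydrolysing ATP when the proton gradient fails, was at 301, 226 and 109 against 156, 122 and 119 CPM, with -0.68 ± 0.37. It thus lay on the same side as the subunits, and its groups overlapped through IRI replicate 3.

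Subunit c, which forms the rotor ring, is made by 3 genes whose mature proteins are the same. Atp5mc3 was at 1019, 985 and 619.9 CPM in IRI and 566, 686 and 726 CPM in congested kidney, with -0.41 ± 0.28. Atp5mc1 was at 251, 359 and 176 against 138, 176 and 205 CPM, with -0.60 ± 0.31, and Atp5mc2 at 49.7, 56.8 and 36.6 against 50.2, 38.0 and 41.6 CPM, with -0.14 ± 0.23. The 3 genes together gave 1319, 1401 and 832 CPM in IRI and 755, 900.2 and 973 CPM in congested kidney, so the groups overlapped through IRI replicate 3. Atp5mc3 held 74.0% ± 3.5 of this sum in IRI and 75.3% ± 0.82 in congested kidney (SD, n = 3), a difference smaller than the spread within IRI. These shares are of CPM, unlike those of complex IV above. Per kilobase Atp5mc3 held 91.0% ± 1.1 and 90.5% ± 1.3. On that scale Atp5mc1, at 4.10% in IRI and 3.58% in congested kidney, fell below Atp5mc2, at 4.90% and 5.92%. Atp5mc1 was the 1 subunit gene with an unadjusted edgeR p under 0.05 once the trend was removed without the block, at -0.82. With the replicate block as well it was no longer below that threshold, and 8 other subunit genes were (Cox7a1, Atp5pd, Atp5me, Atp5po, Uqcrq, Cox5a, Cox5b and Atp5mk). The value of -0.82 used a principal transcript of 4715 bases, whereas another principal transcript of the gene has 596 bases, so how much of the trend applies to it is uncertain. The same reservation holds for Uqcrq, fitted with 1521 bases while another principal transcript has 405.

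Levels per length differed widely among subunits of one complex. In IRI kidney Atp5f1b was highest at 1683 ± 312 CPM per kilobase (SD, n = 3), followed by Uqcrh at 1405 ± 666, Cox6c at 1382 ± 645, Atp5mc3 at 1225 ± 310, Cox4i1 at 1168 ± 325 and Cox6a1 at 1160 ± 357 CPM per kilobase. Each of these 6 differed from the next by less than the SD of either. Sdhc was the lowest of complex II at 108 ± 22.9 CPM per kilobase, and Sdhd the highest at 416 ± 80.4. In congested kidney Atp5f1b was again first, at 1401 ± 283 CPM per kilobase, and Atp5mc3 second, at 923 ± 116. Cox6a2, at 3.08 ± 0.65, and Atp5mg, at 5.82 ± 0.57 CPM per kilobase in IRI, were the last 2 in both groups. The level of Atp5mg is uncertain because of its near-identical copies, as said above.

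Short transcripts lay lower in congested kidney across the whole table, and the subunit genes lay lower than most short transcripts. The median length of the principal transcript was 722.5 bases for the 46 genes and 2862 bases for all tested genes with a length. When the 14003 genes with a length were divided into quintiles by it, the median log2 fold change was -0.35, -0.14, 0.005, 0.12 and 0.27 from the shortest to the longest quintile. Within replicate numbers 1, 2 and 3 the shortest quintile had medians of -0.53, -0.54 and 0.12, and the longest 0.47, 0.53 and -0.11. The order was thus reversed in number 3. In the shortest quintile, which runs from 60 to 1559 bases and is not matched to the subunit genes in length, 85.0% of genes lay below 0. This quintile held 38 of the 46 subunit genes, with a median of -0.67, and 32 of the 38 lay below the median of the quintile. The 4 subunit genes in the next quintile had a median of -0.29 and the 3 in the middle quintile -0.27, both also below the medians of their quintiles.

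Within the subunit genes, those with shorter transcripts had the lower values. The 30 genes under 1000 bases had a median of -0.69 and the 16 of at least 1000 bases a median of -0.34. Across the 46 genes the log2 fold change and log2 length had a Pearson r of 0.48 and a Spearman rho of 0.55, beside an r of 0.53 over all 14003 genes. These describe genes measured in the same 6 libraries, which are not independent. With the length and GC trend removed, the 2 length classes had medians of -0.27 and -0.24, and r across the 46 genes was -0.10.

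**Figure D3:**
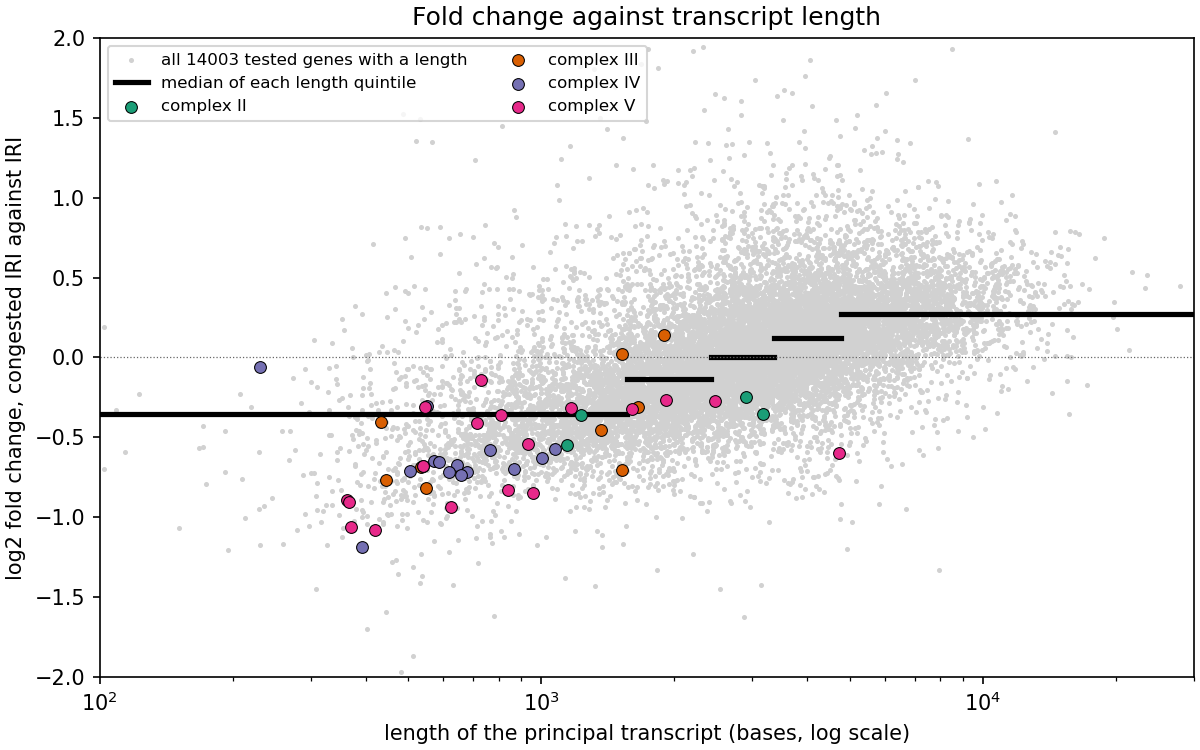
Log2 fold change, congested IRI against IRI, against the length of the principal transcript (log axis, bases). Grey points are the 14003 tested genes with a length (those beyond 2 in either direction on the log2 scale or outside the length axis are not drawn). Black bars are medians of length quintiles and coloured points are subunit genes. Medians climb from -0.35 to 0.27 with length, and most subunit genes lie below the bar of their quintile. Within replicate number 3 alone, not drawn here, the medians of the shortest and longest quintiles were 0.12 and -0.11.

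Compared within equal replicate numbers, the lower levels were found in numbers 1 and 2 but not in number 3. In number 1 the congested library lay below the IRI library in 42 of the 46 genes, with a median log2 difference of -0.85, and in number 2 in 44 genes, with -0.88. In number 3 it lay below in 9 genes, with a median of 0.12. The same order was seen in each complex, with medians of -0.57, -0.57 and 0.10 in complex II, -0.67, -0.87 and 0.10 in complex III, -0.87, -1.07 and 0.09 in complex IV and -0.85, -0.90 and 0.14 in complex V. Lower in numbers 1 and 2 and higher in number 3 was the pattern of 33 of the 46 genes, compared with 25.0% of all tested genes. Lower in all 3 numbers held for 8 genes, compared with 13.1%. The shortest quintile of all genes had medians of -0.53, -0.54 and 0.12 in numbers 1, 2 and 3.

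With the length and GC trend removed, the medians of the 46 genes were -0.31, -0.36 and 0.01 in numbers 1, 2 and 3. Cox5a was then lower by similar amounts in each, at -0.31, -0.27 and -0.30. Atp5pd was at -0.91, -0.52 and -0.03, and Atp5po at -0.78, -0.51 and -0.01. Among these 3 genes Cox5a alone lay clearly below 0 in number 3 as well, and this difference between genes was not tested. Cox5a was not singular among the 46 genes. The scarce forms Cox7a1, at -0.46, -1.06 and -0.37, and Cox6a2, at -0.17, -0.02 and -0.63, were also below 0 in each number. As measured, the values of Cox5a were -0.90, -0.85 and -0.21, and edgeR with the block gave Cox5a -0.66 ± 0.21 with an adjusted p of 0.578.

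**Figure D4:**
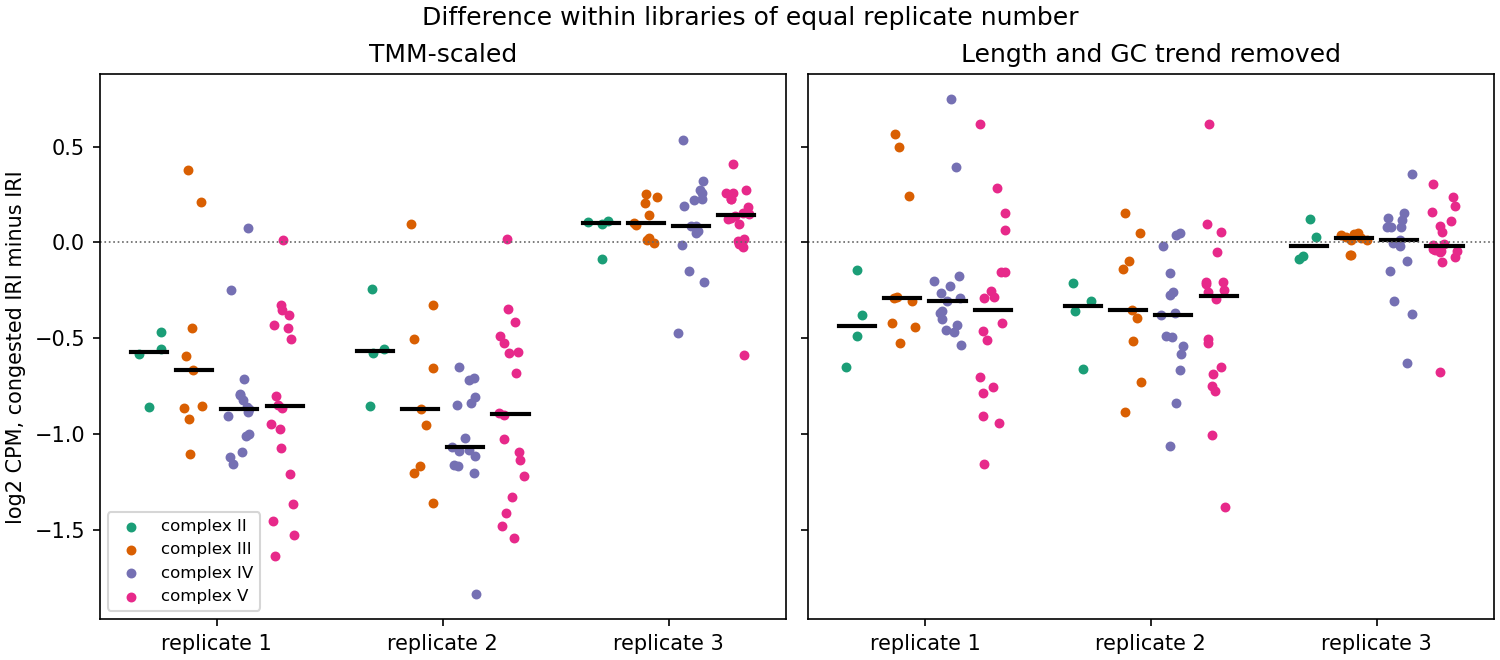
Log2 CPM of the congested library minus that of the IRI library with the same replicate number, by complex; points are genes and black bars medians. Left, TMM-scaled values, with medians over the 46 genes of -0.85, -0.88 and 0.12; right, the length and GC trend removed, with -0.31, -0.36 and 0.01.

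Other genes of the respiratory chain lay on the same side as the subunits of complexes II to V, and edgeR called none of them. All 39 tested nuclear subunits of complex I, which oxidises NADH, were below 0, with a median of -0.63 and, with the trend removed, -0.29, close to the -0.61 and -0.26 of complexes II to V. An unadjusted p under 0.05 was reached by 6 of the 39, all lower, compared with 1.02% of all tested genes, and with the replicate block by 15, compared with 2.99%. Cycs, cytochrome c itself, had -0.45 ± 0.41. Of the assembly factors, 3 of 4 for complex II, 9 of 9 for complex III, 22 of 25 for complex IV and 6 of 6 for complex V were below 0, with medians of -0.40, -0.27, -0.39 and -0.19. With the trend removed these medians were -0.27, -0.27, -0.15 and -0.06. The factors with the smallest p were Sdhaf1, which helps to insert iron-sulfur clusters, at -0.55 ± 0.25, Uqcc3 at -0.77 ± 0.28, Pet100 at -1.09 ± 0.39, Cox17, a copper chaperone, at -0.78 ± 0.33, and Fmc1 at -0.63 ± 0.31.

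Genes that regulate mitochondrial biogenesis did not lie lower as a list. Of 16 tested, 4 were below 0, with a median of 0.11 and, with the trend removed, 0.03, and their median transcript length was 4181.5 bases. Tfam, which packages and transcribes mitochondrial DNA, had -0.39 ± 0.21, and Gabpb2, a partner of GABPA, 0.52 ± 0.38. Markers of mitochondrial mass in the outer membrane and matrix were below 0 in 14 of 16, with a median of -0.28 and -0.14 with the trend removed, and Hspe1, the co-chaperonin of the matrix, had -0.55 ± 0.35. Krebs cycle genes were below 0 in 10 of 13, with -0.17 and -0.10, and Suclg1, a succinyl-CoA ligase subunit, had -0.43 ± 0.24. edgeR called 0 genes in each of these lists, with 0 below the unadjusted threshold.

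Markers of tubule segments and other cells were read from the same fit, and their part in the subunit values was not tested. Proximal tubule markers were below 0 in 7 of 15, with a median of 0.01 (-0.11, with 9 of 15 below 0, once the trend was removed). Their summed level was 41341 to 61782 CPM in IRI and 33325 to 38637 CPM in congested kidney, ranges that did not overlap. A sum is set mostly by its most abundant members. All congested libraries lay below all IRI libraries in 0 of the 15 markers, compared with 3.10% of all tested genes. Markers of the thick ascending limb, another segment rich in mitochondria, were below 0 in 10 of 10, with a median of -0.34, and of the collecting duct in 10 of 10, with -0.46. These medians were -0.30 and -0.36 with the trend removed. Within replicate numbers 1, 2 and 3 the thick ascending limb list stood at -0.20, -0.80 and 0.04, and the collecting duct list at -0.65, -0.59 and -0.02. With the trend removed the values were 0.22, -0.77 and -0.06 for the thick ascending limb and -0.41, -0.46 and -0.12 for the collecting duct, so number 1 of the thick ascending limb list then lay above 0. Summed levels were 1650 to 7283 against 2044 to 7221 CPM for the thick ascending limb and 639 to 1323 against 398 to 1027 CPM for the collecting duct, and overlapped in both.

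Markers of stromal and immune cells lay mostly above 0. Fibroblast and smooth muscle markers were below 0 in 0 of 10, with a median of 0.32, macrophage markers in 2 of 11, with 0.29, and neutrophil markers in 1 of 6, with 1.63. With the trend removed these medians were 0.12, 0.45 and 1.89, and 2 of the 10 fibroblast and smooth muscle markers were below 0. Within replicate numbers 1, 2 and 3 the neutrophil list stood at 1.68, 1.30 and 0.77 and the macrophage list at 0.74, 0.23 and 0.14, and with the trend removed at 1.94, 1.40 and 0.66 and at 1.10, 0.45 and -0.03. The fibroblast and smooth muscle list stood at 0.06, 0.26 and 0.67 as measured and at -0.33, -0.03 and 0.63 with the trend removed, so it lay above 0 in number 3 only. With the replicate block, an unadjusted edgeR p under 0.05 was reached by 5 of 6 neutrophil and 4 of 11 macrophage markers, all higher, compared with 4.06% of all tested genes. Their summed levels overlapped, at 258 to 529 CPM in IRI and 332 to 659 CPM in congested kidney for fibroblast and smooth muscle, 121 to 195 and 125 to 416 CPM for macrophage, and 89.1 to 1275 and 175 to 1055 CPM for neutrophil markers. Most of the neutrophil sum was Lcn2, also made by injured tubules, which had -0.28, whereas the other 5 markers had 1.36 (S100a9) to 2.30 (Csf3r). Podocyte, endothelial and tubular injury lists had medians of 0.04, -0.07 and -0.09, distal convoluted and connecting tubule markers -0.18, and erythroid genes -0.20. With the trend removed these were -0.11, -0.04, 0.11, -0.22 and 0.26, so the podocyte, tubular injury and erythroid medians changed sign. Of 9 lymphocyte markers only Cd8a reached the count minimum, and it reached at most 3.58 CPM. edgeR called 0 genes in every one of these lists.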

How the data were processed

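Polyadenylated RNA from kidney cortex was sequenced with a stranded kit, per the labels. The deposited table holds whole-number counts per gene, which the values show, with 1 column per sample. The submitters' processing notes name STAR 2.7.10a, featureCounts, Subread and GRCm38. What annotation, strand setting and rule for multiply placed reads were used is not given in the sources used here. Genes that overlap or have near-identical copies may therefore share reads. No column was left out. Within a group, the libraries differed from each other beyond sampling noise.

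Genes with at least 10 counts in at least 3 libraries (14398) were fitted with TMM factors in edgeR 4.0.16 (R 4.3.3). Its robust quasi-likelihood test compared the groups, with Benjamini-Hochberg adjustment over all of them, called at an adjusted p under 0.05. Levels are CPM with TMM scaling, taken to log2 with a prior count of 2, except in the plot of levels by library, which adds none. Alternatives were other scaling factors and filters, DESeq2 1.42.0, limma-voom (limma 3.58.1), a non-robust fit, the replicate block, each library or number left out, and a smooth trend in log2 length and GC content (mgcv 1.9.3, basis 6) removed from each library as an offset. Length and GC content are those of the principal GENCODE transcript of GRCm38, and 97.3% of tested genes had one. Of the 46 tested subunit genes 28 matched by symbol, 15 by a RefSeq synonym and 3 by an older symbol.

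Replicate numbers 1 to 3 occur in both groups, and the labels do not say what a number shares. Same-numbered libraries correlated at 0.719, 0.342 and 0.427 in their deviations from the group means. Each was over 0.1, so the numbers were taken to pair them. Yet IRI replicate 2 with congested replicate 3 (0.395) and IRI replicate 3 with congested replicate 2 (0.242) were over 0.1 too. The values set number 1 apart but do not establish the pairing of numbers 2 and 3. The block fits and the values within numbers rest on that pairing. On simulated data with the real means and library sizes, the fit recovered 4.26% of 2-fold and 63.2% of 4-fold changes among 14122 genes. With the block 53.8% and 90.8% were recovered among 14201 genes of a separate simulated set. That set was drawn with the smaller spread that the block model estimates, and no replicate effect was planted. The difference between the sets therefore does not measure a gain from the block. Unchanged genes called numbered 6 without the block and 10 with it.

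Values in every library are given for complex II, the 4 smallest p and the value nearest to or furthest above 0 in each other complex, the paralogue sets and the inhibitor, and up to 2 genes with the smallest p are named of each pathway list. The subunit genes and lists were chosen with earlier results of these data known. Protein sequences were not used here.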

Additional observations from a re-analysis of the deposited data

How the results depend on the processing

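No subunit gene was called in any of the 25 alternatives, and no gene of the table in 24 of them, while DESeq2 with the replicate block called 10 genes, none of them a subunit gene. The replicate block in edgeR gave a median of -0.57 over the 46 genes and -0.34, -0.44, -0.61 and -0.55 for complexes II to V, and changed no other call. Removing trends moved the median of the 46 genes to -0.26 (length and GC content), -0.25 (length alone) and -0.26 (length and GC content with the block), and that of complex IV to -0.26, -0.27 and -0.26. Fits chosen after seeing the data gave complex IV -0.27 with the longest transcript of each gene, and the 46 genes -0.26 and complex IV -0.27 with the trend fitted without complexes I to V. Leaving out 1 library or 1 replicate number, the medians ranged from -0.87 to -0.41 for the 46 genes, -0.57 to -0.23 for complex II, -0.66 to -0.34 for complex III, -0.97 to -0.45 for complex IV and -0.89 to -0.38 for complex V. The number of subunit genes at an unadjusted p under 0.05 ranged from 0 to 31 in those fits and from 1 to 26 in the others. Of the 30 subunit genes whose values are given in every library and that were tested, 26 kept their direction throughout. Atp5mc2 turned to 0.23, 0.20 and 0.23 under the 3 trend fits and to 0.27 and 0.22 under the fits chosen after seeing the data. On leaving libraries out it ranged from -0.30 (without IRI replicate 3) to 0.089 (without number 2), with 0.0021 without IRI replicate 2. Cox6c2 turned to 0.38, 0.36 and 0.38, then 0.37 and 0.36, and 0.048 with total counts only. On leaving libraries out it ranged from -0.30 to 0.27 (without numbers 3 and 2), with -0.29, 0.030 and 0.11 without IRI replicates 3, 1 and 2 and 0.10 without congested replicate 2. Cox8a turned to 0.069, 0.042 and 0.097, then 0.052 and 0.058, and Uqcrc2 ranged from -0.012 without IRI replicate 1 to 0.29 without IRI replicate 3. Apart from the trend fits, whose construction removes what a gene shares with others of its length, the cause was not tested. Total counts moved the median of all genes to 0.10, against -0.004 with TMM. In the simulation at this depth and spread, most 2-fold changes were not called by the fit without the block.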

Other observations

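Among the 10 rows left out for their -ps ending, reads were few beside those of the genes they resemble. Atp5pb-ps had 1150 counts over the 6 libraries, 2.39% of the 48050 of Atp5pb, and Cox5b-ps had 288, 1.56% of the 18517 of Cox5b. Atp5k-ps2 had 107 counts, 0.782% of those of Atp5me (also known as Atp5k). Uqcrh-ps1 had 197 and Uqcrh-ps2 had 93, or 0.449% and 0.212% of Uqcrh. The rows of the subunit g family, Atp5l-ps2, Atp5l2-ps and Atp5l-ps1, had 31, 27 and 2 counts, while Atp5mg itself had 209.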
